A study of Mus musculus with 2 samples.

Results

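Transcripts of the mitochondrial protein import machinery and of the Chchd family were measured in kidney glomeruli, the filtering units of the kidney. Each gene whose platform symbol begins with Timm, Tomm or Chchd was taken from probe sets that name a single gene, and was represented by its probe set of highest mean log2 signal over both arrays. This gave 31 of 18193 named genes, measured by 65 of the 45101 probe sets (groups of short oligonucleotides, each group for a transcript). The glomeruli came from male KK/Ta mice aged 20 weeks, an inbred strain prone to obesity and type 2 diabetes, and both groups share strain, sex and age. The HFD group was fed a high-fat diet and the Chow group a normal fat diet, and each diet had 1 array. The design names 3 mice, with no statement on pooling of their RNA for an array.

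Most mitochondrial proteins are made in the cytosol and pass the outer membrane through the TOM complex. TIM23 in the inner membrane takes up proteins with a cleavable presequence, TIM22 inserts carrier proteins, and the small Tim proteins escort hydrophobic cargo across the space between the membranes. Chchd proteins carry paired cysteine motifs that are oxidised there by Chchd4, the Mia40 oxidoreductase. Podocytes, endothelial cells and mesangial cells of the glomerulus all contain mitochondria, and tubule cells are rich in them.

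Without replicate arrays there is no error between animals, so no difference below carries a test, and each describes the pair of arrays. Signals are the deposited linear intensities. Differences are HFD minus Chow on the log2 scale after each array was centred on its median, which added 0.083 to every difference. Signals under the array's median probe set (42.3 in HFD, 44.9 in Chow) were set to that floor. Among the 31 genes, 29 lay above the floor on both arrays, and 11356 genes of the whole series did so on at least 1. The spread of differences over genes of like signal, as a scaled median absolute deviation, stood in for precision. It ran from 0.37 in the dimmest 10% of genes measured above both floors to 0.14 in the brightest 10%. It holds measurement noise and real differences together. The band of the median ± this scatter leaves part of all genes outside by construction, so lying outside it is not a call.

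The import genes as a whole stood level with the array, while Tomm7 and Timm8b stood low in HFD and Timm29 high. No gene of the 29 differed by 2-fold, a size reached by 0.881% of all genes. A single gene, Timm29, was at least 1.5-fold higher in HFD (4.21% of all genes), and a single gene, Tomm7, at least 1.5-fold lower (1.41% of all genes). By any amount 18 were higher and 11 lower, that is 62.1% and 37.9%, against 62.2% and 37.8% over all genes. Without centring 14 were higher and 15 lower (48.3% higher, against 46.1% of all genes). The median of the 29 was 0.044, beside 0.064 for all genes, so direction alone did not set the family apart from the array. The plot of signals shows where the few wide gaps lie.

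**Figure D1:**
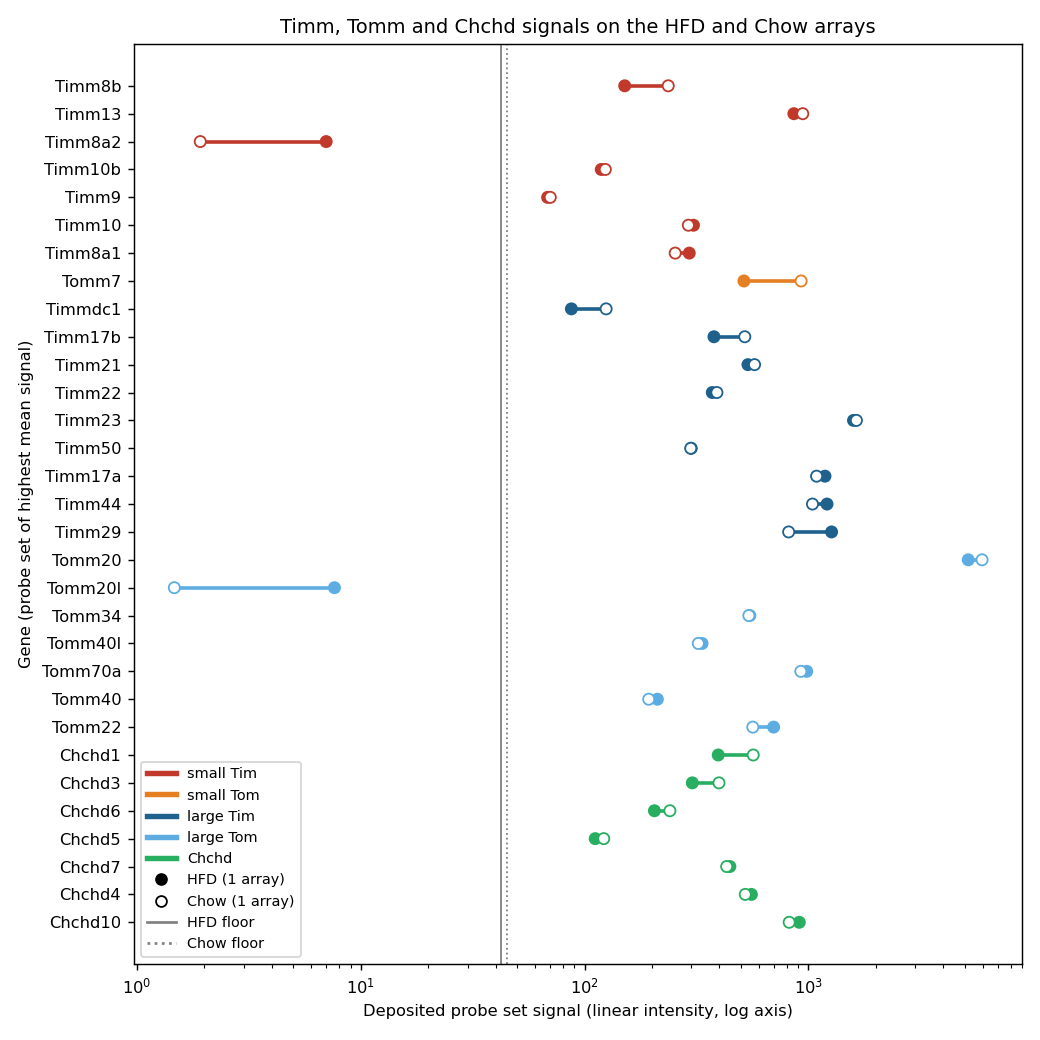
Deposited signal (linear intensity on a log axis) of each of the 31 genes on the HFD array (filled) and the Chow array (open), grouped by role and joined by a line. The widest gaps above the floor lines (42.3 and 44.9) are those of Tomm7, Timm29 and Timm8b, while Timm8a2 and Tomm20l lie under the floor on both arrays.

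Tomm7, a small subunit that regulates assembly of the TOM complex, was the lowest of the family. Its signal was 515 in HFD and 927 in Chow, a difference of -0.76 (1.70-fold lower), which ranked 63 from the lowest of 11356 genes. Genes in its signal range scattered by 0.18. The 2 further Tomm7 probe sets above the floor were also lower in HFD, at 281 against 505 (-0.76) and at 85.0 against 132 (-0.56). The other probe set, under the floor on both arrays, read 33.6 and 44.8. The 3 Tomm7 probe sets above the floor were thus lower in HFD, and the one under it gives no direction. Tomm5 and Tomm6, the other small Tom subunits, are read by probe sets that also name another gene and are outside the rule.

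Among the small Tim genes, Timm8b (lower) and Timm8a1 (higher) lay outside the median ± scatter of genes of like signal, and the other 4 above the floor lay within it. These proteins form ring-shaped chaperone complexes between the membranes. Timm8b, a partner of Timm13 in such complexes, had a signal of 151 in HFD and 236 in Chow, a difference of -0.56 (1.48-fold lower). It ranked 180 from the lowest, with a scatter of 0.26 at its signal. It has a single probe set, which may match several transcripts. Timm13 stood at 860 in HFD and 943 in Chow (-0.048), so the partners did not show the same difference. Timm8a1, whose human counterpart is mutated in deafness-dystonia syndrome, went the other way, at 293 against 254 (0.29, scatter 0.22). Its second probe set, at 57.4 against 62.9, gave -0.048.

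The carrier chaperones Timm9 and Timm10, which form a ring together, stood near 0. Timm10 read 306 in HFD and 291 in Chow (0.16), and Timm9 read 68.3 and 70.2 (0.044). Timm10b, which docks that ring on TIM22, read 119 and 124 (0.023), with further probe sets at 0.044 and 0.27. All 3 differences lay within the median ± scatter at their signals. Without centring, Timm9 and Timm10b turned to -0.039 and -0.060, so they have no settled direction. Timm8a2 read 7.01 and 1.92, under the floor on both arrays, and no fold is given.

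Of the Timm genes of the TIM22 and TIM23 translocases, Timm29 alone differed by 1.5-fold. Timm29, a subunit of TIM22, had a signal of 1268 in HFD and 815 in Chow, a difference of 0.72 (1.65-fold higher) with a scatter of 0.17. It ranked 276 from the highest of 11356 genes. Its second probe set agreed in direction at 125 against 88.1 (0.58). RefSeq also lists a pseudogene, Timm29-ps1, and whether these probe sets read it is not known. The channel gene Timm22 of the same complex read 372 and 390 (0.015, but -0.069 without centring), so TIM22 subunits were unlike each other.

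The core genes of TIM23 stood near 0 in their brightest probe sets. Timm23, the channel subunit, read 1589 in HFD and 1637 in Chow (0.041), and Timm50, the receptor that hands presequences to it, read 299 and 298 (0.091). Timm21, which links TIM23 to the respiratory chain, read 536 and 574 (-0.015). All 3 lay within the median ± scatter at their signals, but a second Timm50 probe set read 77.0 and 95.6 (-0.23), and without centring Timm23 was -0.043. Timm44, the anchor of the import motor, read 1210 and 1042 (0.30, scatter 0.17). A second Timm44 probe set was also higher (266 against 224, 0.33), but another was lower (506 against 625, -0.22).

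The paired isoforms Timm17a and Timm17b, alternative partners of Timm23, pointed in opposite directions. Timm17a, the stress-sensitive form, read 1185 in HFD and 1087 in Chow, a difference of 0.21 with a scatter of 0.17. It lay within the median ± scatter of genes of like signal. Timm17b read 378 and 519, a difference of -0.37 with a scatter of 0.21. The Timm17b difference rested on a probe set that may match several transcripts, and its other probe set read 316 and 346 (-0.047). Timmdc1, an assembly factor of respiratory complex I related to Timm17, read 87.3 in HFD and 125 in Chow (-0.43). It was lower at a low signal, where genes scattered by 0.32.

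Of the 6 large Tom genes above the floor, among them the co-chaperone Tomm34, 5 were higher (83.3%, against 62.2% of all genes), with a median of 0.16. Tomm22, the central receptor that holds the complex together, read 699 in HFD and 564 in Chow, a difference of 0.39 (1.31-fold) with a scatter of 0.20. Its second probe set, however, read 314 and 330 (0.010). Tomm40, the channel itself, read 211 and 193 (0.21, scatter 0.26). Its paralogue Tomm40l read 335 and 322 (0.14), and a second Tomm40l probe set read 268 and 336 (-0.24). Tomm22 lay outside the median ± scatter of genes of like signal, and Tomm40 and Tomm40l lay within it.

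The receptors Tomm20 and Tomm70a carried the most probe sets, which did not agree in direction. Tomm20, the presequence receptor and the gene of highest signal in the family, read 5171 in HFD and 5961 in Chow (-0.12, outside the median ± scatter at its signal). Its 6 probe sets ran from -0.37 to 0.25, 3 lower and 3 higher. Tomm70a, the receptor for carrier proteins, read 982 and 924 (0.17), and its 4 probe sets above the floor ran from -0.34 to 0.17, 3 of them higher. No direction can be given for Tomm20. Tomm34, which acts in the cytosol, read 547 and 541 (0.099), and Tomm20l was under the floor on both arrays at 7.63 and 1.47.

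**Figure D2:**
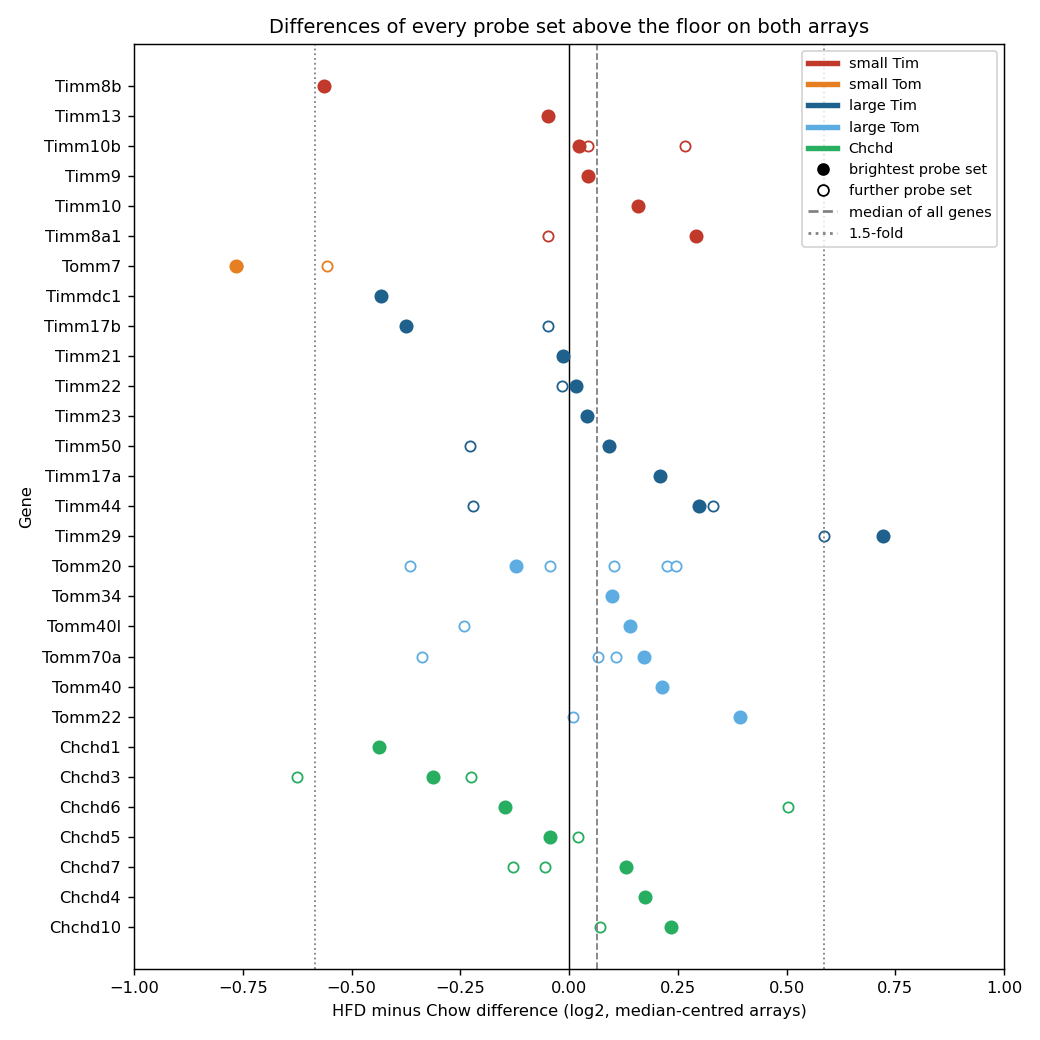
HFD minus Chow difference (log2) of each probe set over the floor of each array, with the brightest probe set filled, further ones open, the median of all genes dashed and 1.5-fold dotted. The Tomm7 points lie together between -0.76 and -0.56 and those of Timm29 between 0.58 and 0.72, while those of Tomm20 straddle 0.

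Further probe sets gave a check within the arrays. Of 17 genes with at least 2 probe sets over both floors, 3 were lower in all of them (Tomm7, Chchd3 and Timm17b). Another 4 were higher in all of them (Timm29, Tomm22, Timm10b and Chchd10), and 10 were mixed. The like shares over all genes were not counted, so these counts cannot be set against the array. Timm8b, Chchd1 and Timmdc1, each with a single probe set, had no such check.

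Small and large Tim and Tom genes were then set side by side. The median of the 7 small genes above the floor was 0.023, with 4 higher (57.1%, against 62.2% of all genes) and 3 lower. The 15 large genes had a median of 0.099, with 11 higher and 4 lower (26.7%, against 37.8% of all genes). Without centring, 2 of the 7 small and 9 of the 15 large genes were higher, beside 46.1% of all genes. The medians differed by -0.075, small minus large, and the ranges of the classes overlapped (-0.76 to 0.29 and -0.43 to 0.72). When all probe sets of a gene were combined by their median, the gap was -0.0066. The lowest values of the small class were those of Tomm7 and Timm8b, and its other 5 genes lay between -0.048 and 0.29.

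**Figure D3:**
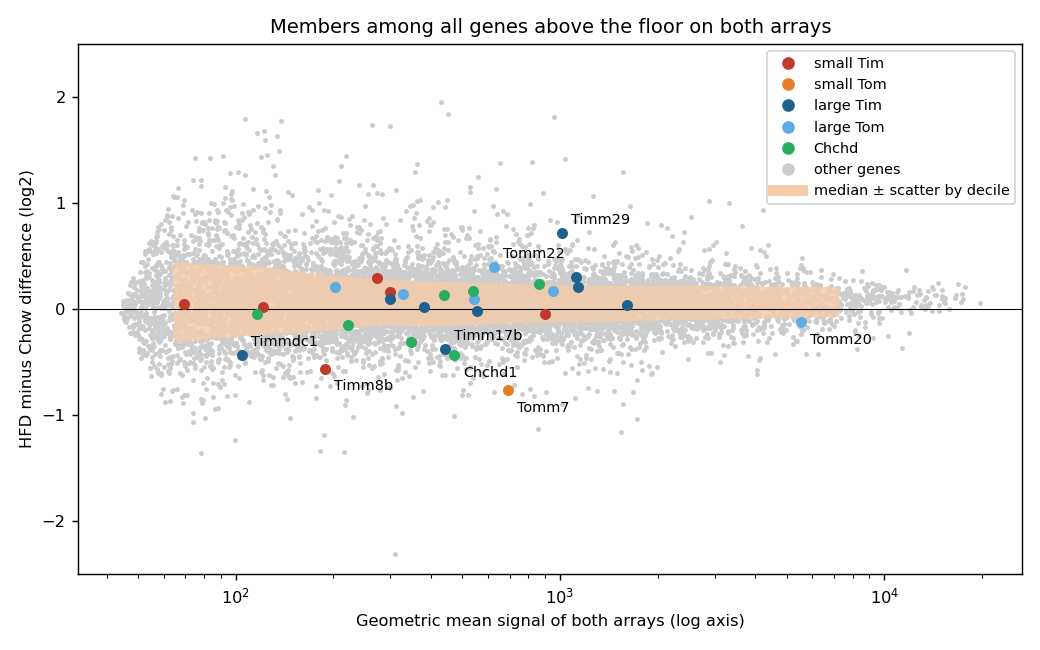
HFD minus Chow difference (log2) against the geometric mean signal of both arrays (log axis) for all genes over the floor of each array (grey), with the band of median ± scatter by decile of signal and the family coloured by role. Tomm7 (-0.76), Timm8b (-0.56) and Timm29 (0.72) stand outside the band, and 18 of the 29 genes lie within it. By construction the band leaves part of all genes outside, a share that was not counted.

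Chchd genes were mixed, with 3 of 7 higher (42.9%, against 62.2% of all genes), 4 lower and a median of -0.043. Chchd1, a component of the mitochondrial ribosome, read 395 in HFD and 566 in Chow, a difference of -0.44 (1.35-fold lower) with a scatter of 0.21. Chchd3, a subunit of the MICOS complex that shapes cristae junctions, read 303 and 398 (-0.31, scatter 0.21). Its further probe sets read 103 against 128 (-0.23) and 48.4 against 79.1 (-0.63), so all 3 were lower in HFD. Chchd6, its MICOS partner, read 205 and 240 (-0.15), but its other probe set, of nearly equal signal, read 201 and 150 (0.50). The direction of Chchd6 is therefore not settled.

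The remaining Chchd genes were close to level or slightly higher. Chchd4, the oxidoreductase that folds small Tim and Chchd proteins, read 556 in HFD and 522 in Chow (0.17, scatter 0.20). Chchd10, mutated in inherited myopathy and motor neuron disease, read 910 and 820 (0.23, scatter 0.18), and its second probe set gave 0.071. Chchd5 read 111 and 122 (-0.043), and Chchd7 read 445 and 431 (0.13) with both its further probe sets above the floor lower. All 4 lay within the median ± scatter of genes of like signal.

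Other genes of the import pathway, in 4 lists, gave 25 higher and 19 lower of 44 above the floor, with a median of 0.017. That is 56.8% higher, against 62.2% of all genes. Without centring 17 were higher and 27 lower (38.6% higher, against 46.1% of all genes). None differed by 2-fold (0.881% of all genes), none was 1.5-fold higher (4.21% of all genes), and 1 was 1.5-fold lower (1.41% of all genes). That gene was Romo1, a small inner membrane protein tied to TIM23, which read 1091 in HFD and 1972 in Chow (-0.77, 1.71-fold lower, rank 59 from the lowest). Romo1 and Tomm7 thus stood within a few ranks of each other. The Romo1 probe set may match several transcripts. In the motor and chaperone list, 6 of 11 were higher (54.5%), with Hspd1, the matrix chaperonin, at 0.20 and its co-chaperonin Hspe1 at -0.20. Pam16, a regulator of the import motor, stood at -0.19. The probe sets of Hspe1 and Pam16 may also match several transcripts.

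Sorting and processing genes were higher for 11 of 16 (68.8%, against 62.2% of all genes). Their median of 0.029 was under the 0.064 of all genes. Oxa1l, the inner membrane insertase, read 689 in HFD and 542 in Chow (0.43). Uqcrc2, a complex III core protein of the processing protease family, stood at 0.31, the processing protease subunit Pmpcb at 0.29 and the outer membrane protein Mtx1 at 0.25. The largest differences of this list were thus positive. The probe sets of Oxa1l, Uqcrc2 and Mtx1 may match several transcripts.

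Small MICOS and twin CX9C proteins, the latter also folded by the Chchd4 pathway, held several lower values. Of the 5 MICOS genes, however, 3 were higher (60%, against 62.2% of all genes), with a median of 0.0067. Micos13 read 637 in HFD and 943 in Chow (-0.48) and Micos10 read 1593 and 2088 (-0.31), whereas the large scaffold Immt stood at 0.16 and Apool at 0.16. Of 12 twin CX9C genes 7 were lower (58.3%, against 37.8% of all genes), with a median of -0.087. Without centring it was 8 of 12, against 53.9% of all genes. Uqcrh, a hinge protein of complex III, read 733 and 1096 (-0.50), and Cox17, the copper chaperone of complex IV, read 1029 and 1513 (-0.47). Cox6b1, a complex IV subunit, read 3785 and 4984 (-0.31). Cox19, another assembly factor of complex IV, went the other way at 313 against 230 (0.53). The probe sets of Micos10, Immt, Uqcrh, Cox17 and Cox6b1 may match several transcripts.

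**Figure D4:**
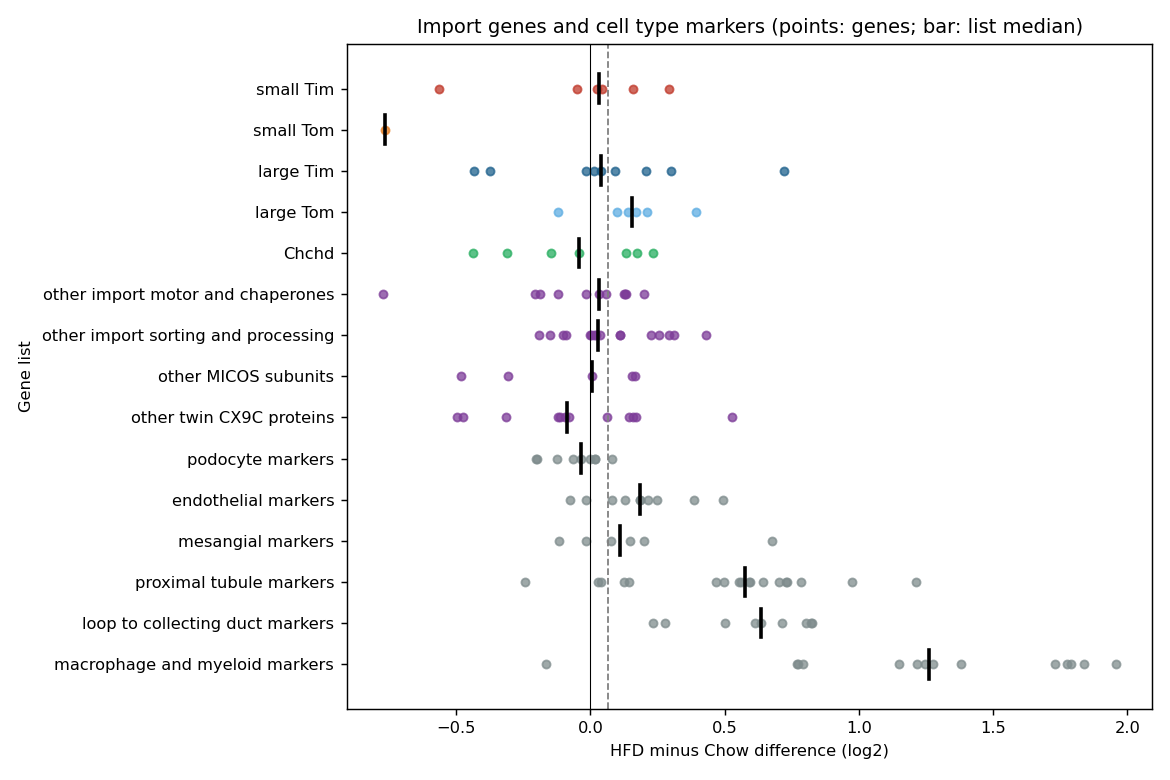
HFD minus Chow difference (log2) of single genes (points) in each list, with the list median as a bar and the median of all genes dashed. The small Tom list holds Tomm7 alone (-0.76). Medians of the other import lists lie between -0.087 and 0.16, with Romo1 (-0.77) a single low point. Tubule and myeloid marker medians lie between 0.58 and 1.26.

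Markers of tubule and myeloid cells differed on the same arrays. The glomerular slit diaphragm gene Nphs1 read 5421 in HFD and 5427 in Chow, and all 9 podocyte markers found were above the floor, with a median of -0.035 (3 higher, summed signal 66388 against 72066). Proximal tubule markers were higher for 17 of 18, with a median of 0.58 and a summed signal of 22420 against 16472. Loop to collecting duct markers were higher for 9 of 9 above the floor on at least 1 array (median 0.64, summed signal 8751 against 6119). Myeloid markers were higher for 13 of 14 such genes (median 1.26, summed signal 5964 against 2405). Over all genes, 62.2% were higher. Scnn1b, Cd68, C1qa, C1qb and C1qc passed the floor on the HFD array alone, so that filter fixed their direction. Slc4a1, Cldn16, Itgam and Aif1 lay under the floor on both arrays and are in none of these counts. The part of tubule and myeloid cells in the values of Tomm7, Timm29 and the other import genes was not tested. In whole glomeruli fewer cells of a type and less RNA per cell cannot be told apart. Endothelial (0.18) and mesangial (0.11) medians were smaller.

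A shared sequence feature of the family was looked for in RefSeq promoter windows of build GRCm38.p6, which span 250 bases before to 50 bases after a gene's start. Of the 31 genes, 27 matched, with 29 windows. Both strands were searched for CCGGAAG (the core bound by ETS factors such as GABP), the NRF1 motif (GCGC repeated after a gap of 2 bases), AAGATGGC (YY1) and AAGGTCA (ERR), all known in promoters of mitochondrial genes. The ETS core was found in 13 of 29 windows (44.8%), beside 8.86% of all 32851 windows searched and 17.2% of those of genes above the floor. Shown here are the 250 bases before the start of Timm8b, lower in HFD, and of Tomm22 and Timm29, higher in HFD, since all 3 hold the core. They lie at chr9:50603651-50603900, chr15:79670618-79670867 and chr9:21592472-21592721, each on the plus strand, and capitals mark matches to any of the 4 motifs.
Timm8b: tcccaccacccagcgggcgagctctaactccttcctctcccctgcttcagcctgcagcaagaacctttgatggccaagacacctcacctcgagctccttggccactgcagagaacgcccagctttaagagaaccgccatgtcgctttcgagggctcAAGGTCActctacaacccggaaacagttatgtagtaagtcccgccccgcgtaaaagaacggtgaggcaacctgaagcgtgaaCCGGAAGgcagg
Tomm22: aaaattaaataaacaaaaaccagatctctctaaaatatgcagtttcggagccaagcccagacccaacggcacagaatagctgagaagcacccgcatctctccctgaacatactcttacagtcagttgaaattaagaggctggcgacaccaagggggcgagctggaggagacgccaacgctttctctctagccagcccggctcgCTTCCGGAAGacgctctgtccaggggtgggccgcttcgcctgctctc
Timm29: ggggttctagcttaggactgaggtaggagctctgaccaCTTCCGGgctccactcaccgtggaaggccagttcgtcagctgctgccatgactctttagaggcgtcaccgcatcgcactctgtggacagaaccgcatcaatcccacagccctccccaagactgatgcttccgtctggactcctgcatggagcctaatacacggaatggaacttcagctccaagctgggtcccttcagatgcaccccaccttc

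In Timm8b the ETS core begins 12 bases before the start and AAGGTCA 94 bases before it, and an NRF1 match, GCGCGTGCGC, begins at base 19 after the start. In Tomm22 the core is present on both strands in overlapping form, beginning at 47 and 44 bases before the start, and again at base 6 after it. In Timm29 it begins 212 bases before the start, on the other strand. The core was found in 4 of 7 windows of small Tim genes, 7 of 16 of large Tim and Tom genes and 2 of 6 of Chchd genes, so it did not separate the classes.

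Nor did the core go with a direction among genes with a window, which leave out Tomm7. Of the 11 genes above the floor with a match, 7 were higher and 4 lower (median 0.041). Of the 14 with a window but without a match, 9 were higher and 5 lower (median 0.067). NRF1 matches occurred in 3 of 29 windows (10.3%, beside 6.23% of all and 13% of those of genes above the floor), in Timm8b, Tomm20 and Chchd4. AAGGTCA occurred in 4 (13.8%, beside 4.72% and 3.12%) and AAGATGGC in 1 (3.45%, beside 2.75% and 4.4%). A match describes the letters of a window and is not evidence of binding.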

How the data were processed

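RNA of glomeruli was labelled in a two-cycle protocol, per the labels, and hybridised to Affymetrix Mouse Genome 430 2.0 arrays, 1 per diet. The deposited table holds a linear intensity per probe set and array. For probe summary and array scaling, the method is not stated in the labels. The design text names GeneSpring 7.3.1. From the 45101 probe sets, 64 controls were left out, and values were put on a log2 scale, median-centred and raised to the 50th percentile floor. Platform annotation dated 2016 named 1 gene for 34945 probe sets, several for 932 and none for 9160. All 31 family genes had an entry in the RefSeq table of GRCm38.p6. With 1 array per diet no p-value was computed, and that number limits the precision. Genes were counted at 2-fold and 1.5-fold.

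Named were all members and, in each other import list, the 4 largest differences among genes above both floors. Roles, lists, promoter motifs and members were chosen with earlier results of these data known. Alternatives covered scaling, floor, pseudocount, probe set choice and threshold. The calculation of differences was checked on simulated data, which does not test the diet. Python 3.11.15, pandas 2.3.3, statsmodels 0.14.6 and matplotlib 3.10.9 were used.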

Additional observations from a re-analysis of the deposited data

How the results depend on the processing

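The gap between small and large Tim and Tom medians kept its sign under the 12 alternatives computed. It ran from -0.17 with the floor at the 70th percentile to -0.0066 with the median over probe sets. Centring could not move this gap, which was -0.075 with and without it. The small median itself, 0.023, was -0.060 without centring, 0 with quantile normalization and -0.048 with the 70th percentile floor. The Chchd median, -0.043, was 0.044 without probe sets that may match several transcripts. The count of genes at least 2-fold apart was 0, but 2 with no floor (Timm8a2 and Tomm20l, at signals of 7.63 or less) and 2 at a threshold of 1.5-fold. Of 29 genes, 20 kept their sign in every alternative that gave a value, among them Tomm7 (-0.85 to -0.76), Timm29 (0.64 to 0.72), Timm8b (-0.65 to -0.23, the latter with the 70th percentile floor, which its HFD signal does not reach), Chchd1 (-0.52 to -0.43) and Tomm22 (0.20 to 0.39). The other 9 (Chchd6, Chchd7, Timm10b, Timm22, Timm23, Timm50, Timm9, Tomm20 and Tomm40l) turned in at least 1. Many alternatives could not alter a given gene, so the count of kept signs overstates how far they were tried. Chchd1, with a single unique probe set, stayed at -0.44 under all settings but those of scaling and pseudocount. For Tomm20 the difference was 0.25 and for Chchd6 0.50 without shared probe sets. Leaving out Tomm7, leaving out Timmdc1 and Tomm34, and adding probe sets that name a further gene were chosen after seeing the data. The split by protein length at 120 residues was not run, as protein sequences were not used here. No paired analysis was possible because each diet has 1 array.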

Other observations

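Tomm5, Tomm6 and Chchd2 are read by probe sets whose annotation names a further gene, so their values are uncertain. The Tomm5 probe set, shared with Gm8069, read 671 in HFD and 719 in Chow (-0.016). The pair shared by Tomm6 and Prickle4 read 2425 against 2207 (0.22) and 425 against 514 (-0.19), in opposite directions. The brightest set of Chchd2, shared with the pseudogene Chchd2-ps, read 11219 against 13020 (-0.13). None of these resembled Tomm7.

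Within 8 genes of the family that have both kinds of probe set above both floors, those marked as possibly matching several transcripts were lower in HFD than the unique ones for 6 (75%), with a median gap of -0.30. Over all 2376 such genes the share was 52.1% and the median gap -0.015. The gap was -0.65 in Chchd6, -0.38 in Tomm22, -0.33 in Timm17b, -0.32 in Tomm20, -0.29 in Timm44 and -0.28 in Tomm70a. It was 0.10 in Tomm7 and 0.32 in Timm50.

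The 4 genes with a genomic span of up to 2 kb held 3 lower ones (Timm8b, Chchd1 and Timm13) and Tomm22, which was higher. Over all 265 genes of that span 47.9% were lower, and the median difference was 0.016 with a scatter of 0.30. Of 3672 genes spanning over 5 to 20 kb, 34.7% were lower, with a median of 0.079 and a scatter of 0.21. Across the 29 genes, span and difference had a Spearman rho of -0.057, and mean signal and difference 0.27, given as descriptions over genes that share both arrays.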
